A study of Cucumis sativus with 4 samples.

Results

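A set of 35 genes, of 20000 listed, stood at least 2-fold higher in young fruits of the short-fruited cucumber line 409 than in those of the long-fruited line 408, with closely matching replicates in both lines. The members were chosen on these values themselves. The lower of the 409 values had to be at least 10 RPM (a gene's reads out of every 1000000 that fell on listed genes) and at least 2 times the higher of the 408 values. Within each line the larger replicate value could exceed the smaller by at most 25%, the 408 values had to be above 0, and the mean of the 4 libraries had to be under 500 RPM. The difference between the lines is therefore a description of how the genes were picked and was not tested.

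Poly(A)-selected RNA was sequenced from fruits of Cucumis sativus line 409 and of line 408, its near-isogenic partner, with 2 samples per line. Each sample pooled 3 to 5 fruits of 2 to 4 cm from different plants. Plants of both lines grew in a greenhouse without any experimental treatment named in the labels, and all fruits were picked on 1 day. The study compared the lines to look for genes and networks linked to fruit length. The labels do not name the loci at which the lines differ, so the segment or segments that separate 409 from 408 are not known here.

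The cucumber fruit grows from an ovary that lies below the flower. Its early growth rests on cell division, which later gives way to cell expansion, and fruit length depends on how long and how strongly both run along the axis of the fruit. Near-isogenic lines share most of their genome, so genes that differ between them can lie in an exchanged segment or respond to one from elsewhere. The gene IDs were not paired with names or products in the sources used here. None of the IDs was found in a reference table of 23999 cucumber genes, so no function is given for any member, and the tissue label was not checked against marker genes.

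The estimated depth was 13753000 and 12256000 reads of listed genes for the 409 replicates 1 and 2, and 12504000 and 13808000 for the 408 replicates. At these depths 1 read was worth 0.0724 to 0.0816 RPM. The member with the fewest reads had about 38 in its lowest library, and the median member about 183. RPM values are not divided by gene length, so the values of different genes are not compared with each other as transcript levels. In pooled fruit tissue, fewer cells of a type and less RNA per cell cannot be told apart.

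Over the 35 members the ratio of the line means, 409 over 408, had a median of 2.62 and an interquartile range of 2.35 to 3.08. It ran from 2.08 to 6.45. The mean in 409 ran from 11.1 to 229.8 RPM with a median of 36.9 RPM, and the mean in 408 ran from 2.95 to 92.9 RPM with a median of 14.5 RPM. Most members lay near the lower limit of the rule. The lower 409 value was 2 to 2.5 times the higher 408 value in 20 members, 2.5 to 3 times in 10, and at least 3 times in 5. Together the members held 2106 and 2099 RPM in the 409 replicates 1 and 2, against 785 and 691 RPM in the 408 replicates. The set thus took about 0.211% and 0.210% of the listed reads in line 409, and 0.0785% and 0.0691% in line 408.

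**Figure D1:**
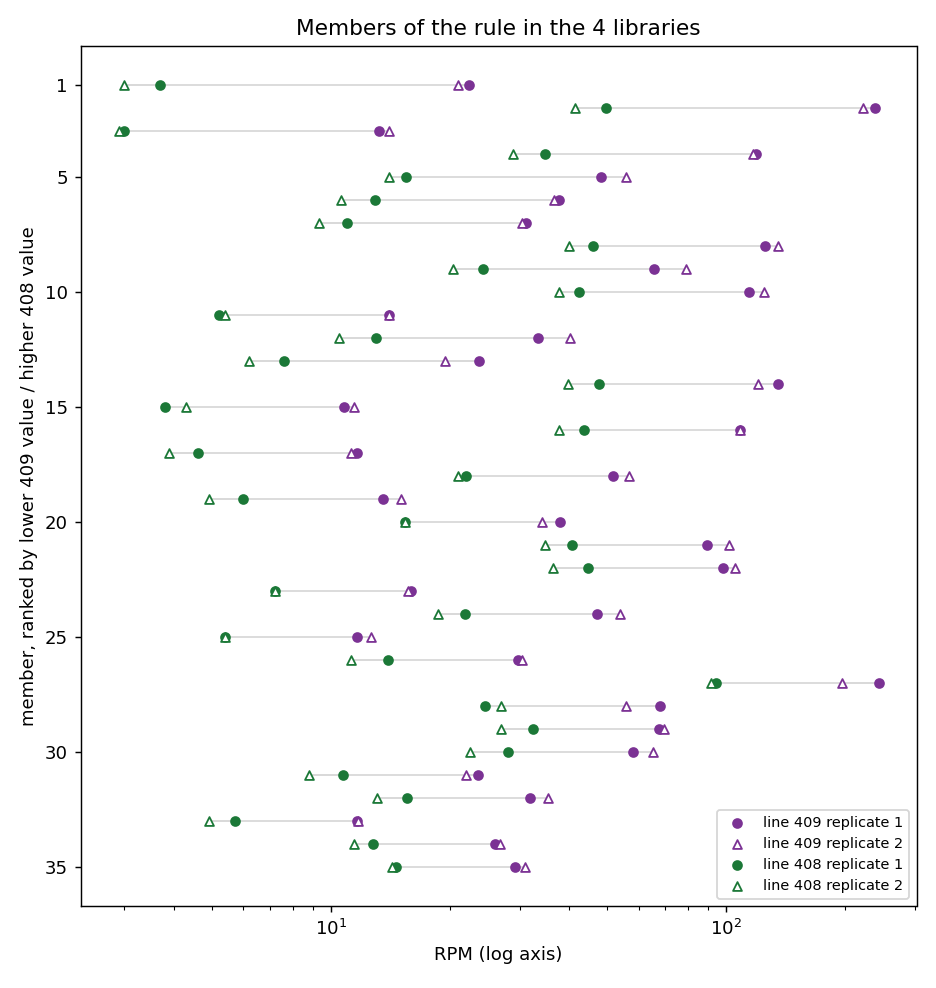
Values of the 35 members in RPM on a log axis, 1 row per gene, ranked from the top by the ratio of the lower 409 value to the higher 408 value; circles are replicate 1, open triangles replicate 2, and grey lines span the 4 values. The 409 and 408 values are separated in every row, as the rule required, by a ratio of 5.65 in the top row and 2.00 in the bottom row.

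The 2 members with the largest ratio of the lower 409 value to the higher 408 value were singled out by a rule. All other IDs given here were chosen after their values were seen. Csa2G429040 measured 22.3 and 20.9 RPM in the 409 replicates 1 and 2, against 3.7 and 3.0 RPM in the 408 replicates. Its 408 replicates were 1.23 times apart, near the limit of 25%. Line 409 averaged 21.6 ± 0.99 RPM and line 408 averaged 3.35 ± 0.495 RPM (SD, n = 2 each), a ratio of the means of 6.45. The ratio of its closest values was 5.65, with a 95% counting interval of 4.14 to 7.95 (exact Clopper-Pearson, from the estimated reads of those libraries). This and the other intervals cover counting error only, and were computed from values that the rule had selected on.

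Csa1G587990 measured 237.8 and 221.8 RPM in the 409 replicates, against 49.6 and 41.4 RPM in the 408 replicates. Replicate 2 was the lower library in both lines. Line 409 averaged 229.8 ± 11.3 RPM and line 408 averaged 45.5 ± 5.80 RPM (SD, n = 2 each), a ratio of the means of 5.05. Because many reads fell on this gene, its counting interval was narrow, at 4.10 to 4.89 around a ratio of the closest values of 4.47.

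A ratio of at least 4 between the closest values was found in 3 members, and the third was Csa3G601030. It measured 13.2 and 14.0 RPM in the 409 replicates, against 3.0 and 2.9 RPM in the 408 replicates. Its replicates were nearly equal in both lines, but its 408 values rest on few reads, and the counting interval of its ratio ran from 3.06 to 6.35. The next members in order were Csa7G435550 and Csa6G404190. Csa7G435550 measured 119.0 and 117.0 RPM in the 409 replicates, against 34.8 and 28.8 RPM in the 408 replicates, a ratio of the means of 3.71. Csa6G404190 measured 48.3 and 55.6 RPM in the 409 replicates, against 15.5 and 14.0 RPM in the 408 replicates, a ratio of the means of 3.52. In all 5 of these genes the 408 replicate 2 library held the lowest of the 4 values.

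The other 30 members had smaller ratios. Among all 35, the 8 members with a 409 mean of at least 100 RPM had ratios of the means of 2.36 to 5.05 (median 2.95). The 19 members with a 409 mean from 20 to below 100 RPM had ratios of 2.08 to 6.45 (median 2.495). The 8 members below 20 RPM in 409 had ratios of 2.19 to 4.61 (median 2.63). Members of every read class therefore covered overlapping ranges, and no class held all of the large ratios. The member with the highest mean over the 4 libraries was Csa1G690150, with 242.8 and 196.1 RPM in the 409 replicates, against 94.3 and 91.5 RPM in the 408 replicates. It had the widest replicate gap in 409 of any member.

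**Figure D2:**
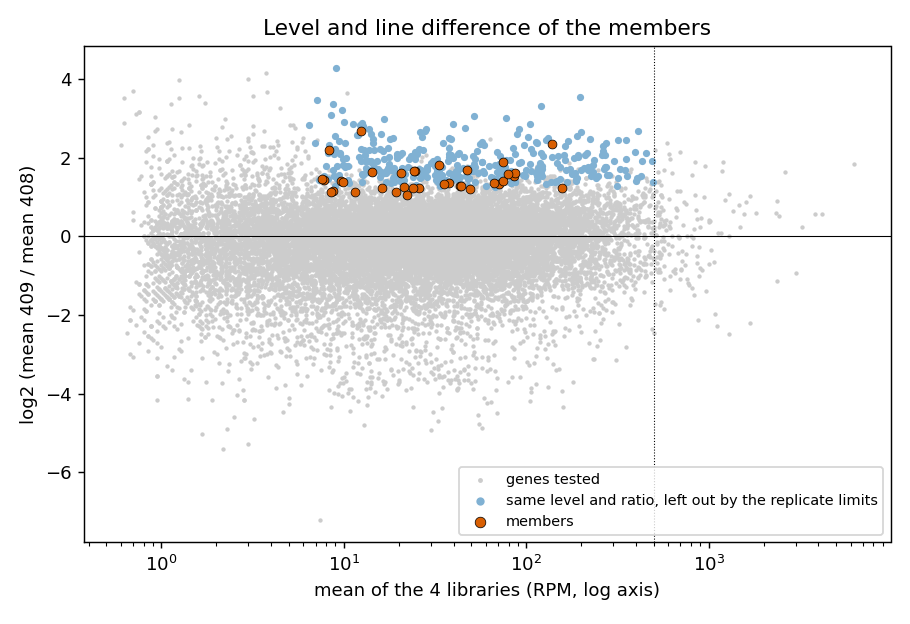
Mean of the 4 libraries in RPM (log axis) against the log2 ratio of the line means, 409 over 408, for genes tested and above 0 in every library (grey), genes that met the level and ratio limits but not the replicate limits (blue) and the 35 members (orange). The dotted line is the limit of 500 RPM, and the members lie at ratios of 2.08 to 6.45, with 10 of them below the lowest of the 343 blue genes at 2.38. Wider replicate gaps give a larger ratio of the means at the same ratio of closest values, so nothing is read from this.

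The ratio and replicate limits had genes close by on either side. Csa3G895960 was just inside the ratio limit, with 29.2 and 30.9 RPM in the 409 replicates against 14.6 and 14.3 RPM in the 408 replicates, a ratio of the closest values of exactly 2. The nearest gene outside had a ratio of 1.996, and 6300 genes missed the ratio limit alone. Csa2G301510 was just inside the limit for 408, with replicates of 28.1 and 22.5 RPM, 1.249 times apart, and the nearest of the 227 genes that missed this limit alone was at 1.251. In 409 the widest member was at 1.238 and the nearest of 19 genes outside was at 1.252. The lowest 409 value of a member was 10.8 RPM, and the nearest of 40 genes that missed this limit alone stood at 7.1 RPM. The limit of 500 RPM left out 0 genes. For 20 of the 35 members the counting interval of the ratio reached below 2, so that at this depth counting alone does not place them above the ratio limit. For 15 members the interval stayed above 2. The intervals were computed from the same values that the rule selected on, so nothing is read from either count.

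Most genes that met the level and ratio limits were left out of the set by the replicate limits. The level and ratio limits alone were met by 378 genes, of which 35 (9.26%) also met both replicate limits. The 409 replicates were within 25% of each other in 262 of the 378 genes, and the 408 replicates in 54. The gap within line 408 was too wide in the other 324 genes. In 320 of these 324 genes the 408 replicate 2 value was the lower one. The 343 genes left out had a median ratio of the means of 3.38, against 2.62 for the members. The replicate limits and the ratio share the same values, so this difference was not tested. A wider replicate gap gives a larger ratio of the means at the same ratio of closest values. The ratio of closest values, which the rule used, had medians of 2.44 in the genes left out and 2.37 in the members.

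Within the limits of the rule, the members still leaned the same way in line 408. Replicate 2 was lower than replicate 1 in 29 of the 35 members (82.9%), equal in 3 and higher in 3. Among the 343 genes left out it was lower in 335 (97.7%), and among all 17391 genes tested in 8585 (49.4%). The median ratio of replicate 2 to replicate 1 in 408 was 0.853 over the members, 0.578 over the genes left out and 1.00 over all genes tested. The limit of 25% fixes how far the 408 pools can lie apart in a member, but not which of them is lower. In line 409 replicate 2 was higher than replicate 1 in 20 of the 35 members (57.1%), lower in 13 and equal in 2, against 36.6% higher among all genes tested. The median ratio of replicate 2 to replicate 1 in 409 was 1.03 over the members and 0.94 over all genes tested. Replicate 2 was the higher library in 409 and the lower one in 408 in 18 members (51.4%) and in 229 of the genes left out (66.8%). In these genes both replicate 2 libraries thus lay at the ends of the 4 values. The same order within the lines was found in 26.9% of all genes tested. There it does not place them at the ends unless 409 lies above 408, so the shares are not alike. Under either rescaling of the libraries described below, the number of members with this order was 23. The shares of the other genes under those rescalings were not counted. The part of the difference between the pools in these counts was not tested.

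**Figure D3:**
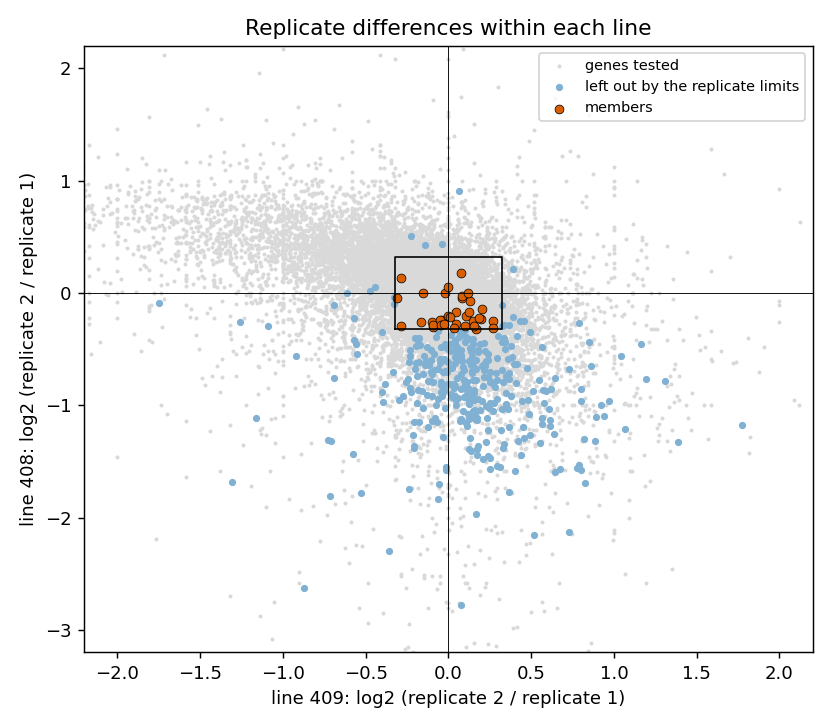
Log2 ratio of replicate 2 to replicate 1 in line 409 (horizontal) and in line 408 (vertical) for genes tested (grey), genes left out by the replicate limits (blue) and members (orange); the box marks a difference of 25% in either direction, and 208 of the genes tested lie beyond the axes and are not drawn. Of the 35 members, 29 lie below the horizontal zero line, and the blue genes continue downward from the box.

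The gaps between replicates were also set beside the counting error at the estimated depths, which is only a part of the spread between separate pools. In 409 the gap was within 2 counting SDs in 22 of the 35 members (62.9%), against 55.3% of all genes tested. In 408 it was within 2 counting SDs in 25 members (71.4%), against 48.9%. The limit of 25% favours small gaps, so nothing is read from these shares. In 408 the other 10 members all had the lower value in replicate 2. In 409 the other 13 members were split, with 8 higher and 5 lower in replicate 2. Only 6 members had replicates within 10% of each other in both lines. One of them, Csa6G137580, measured 14.0 RPM in both 409 replicates, against 5.2 and 5.4 RPM in the 408 replicates. Another, Csa4G109030, measured 15.9 and 15.7 RPM in the 409 replicates, against 7.2 RPM in both 408 replicates. Csa1G690150 had the widest gap in counting SDs, at 8.05 in line 409.

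Rescaling of the libraries left every member higher in 409. The 2-fold limit of the rule made this nearly certain in advance, so nothing is read from it. After median-of-ratios scaling the lowest ratio of closest values among the 35 was 2.04 and the median 2.42, and after quantile normalization they were 2.07 and 2.56, against 2.00 and 2.37 as deposited. The median log2 difference of all genes tested, 409 minus 408, was -0.06 as deposited, 0.01 after median-of-ratios scaling and 0.07 after quantile normalization. Applied to the rescaled values, the rule gave 51 and 68 genes, and 33 of the 35 members were among them in each case.

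The rule did not use the place of the genes. IDs of this form carry the chromosome in the digit after Csa and run in order along it, which is how they were read here. Members were found under all 7 chromosome digits, at 1.30 to 3.47 per 1000 genes tested. Chromosome 6 had the most, with 10 members of 2886 genes tested. Chromosomes 1 and 3 had 6 members each, chromosome 2 had 4, and chromosomes 4, 5 and 7 had 3 each. Chromosome 6 also had the most genes by the mirrored rule, 18 of 66, in which 408 stood above 409 under the same limits. The members were thus spread over the genome in the order of the IDs and did not lie in 1 block.

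**Figure D4:**
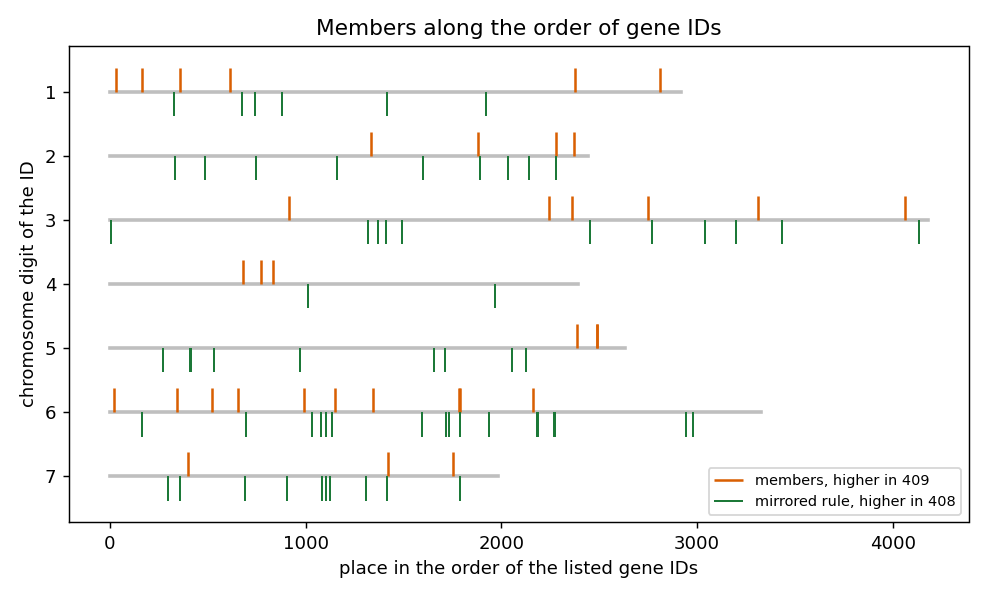
Place of the 35 members (orange, upward) and of the 66 genes of the mirrored rule (green, downward) in the order of listed gene IDs, 1 row per chromosome digit; grey bars span all listed genes with that digit. Members occur in each of the 7 rows, and the neighbouring pairs of chromosomes 5 and 6 appear as single thick marks.

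Of the 35 members, 4 (11.4%) had another member within 10 listed genes on either side, against 3.46% of all genes tested. They formed 2 pairs. Csa5G643360 and Csa5G643370 were next to each other. Csa5G643360 measured 135.0 and 120.2 RPM in the 409 replicates, against 47.7 and 39.8 RPM in the 408 replicates. Csa5G643370 measured 108.2 RPM in both 409 replicates, against 43.7 and 37.8 RPM in the 408 replicates. Their ratios of the means were 2.92 and 2.66. Of the 5 listed genes on each side of this pair, 1 was at least 2-fold higher in 409, with 211.8 and 223.5 RPM in 409 against 49.7 and 30.1 RPM in 408. The other 9 had ratios of the means of 0.510 to 1.61, so the difference did not extend over the whole neighbourhood. The second pair was Csa6G403620 and Csa6G404190, 7 places apart. Csa6G403620 measured 37.8 and 36.7 RPM in the 409 replicates, against 12.9 and 10.6 RPM in the 408 replicates.

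Genes next to a member were then compared between the lines. A directly adjacent gene that met the level and ratio limits was found beside 8 of the 35 members (22.9%). The same was found beside 49 of the 343 genes left out (14.3%) and 655 of the 17391 genes tested (3.77%). Within 10 listed genes on either side the shares were 37.1% of members and 30.7% of genes tested, which lie closer together than the shares for adjacent genes. Besides the pair of members on chromosome 5, 7 such neighbours were found, and 6 of these had 408 replicates over 1.5 times apart. The gene next to Csa2G429040, the member with the largest ratio, was Csa2G429050. It measured 26.0 and 22.0 RPM in the 409 replicates, against 4.6 and 2.7 RPM in the 408 replicates. Reads of near-identical copies or overlapping genes may be counted for more than 1 gene, and their part in these pairs was not tested.

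Members also lay beside genes of the opposite direction. Within 10 listed genes, 5 members (14.3%) had a gene of the mirrored rule, against 6.18% of all genes tested. In 1 case they were adjacent. Csa2G416080, a member, measured 68.1 and 55.8 RPM in the 409 replicates, against 24.5 and 26.9 RPM in the 408 replicates. Its neighbour Csa2G416090 measured 4.3 and 3.8 RPM in the 409 replicates, against 10.0 and 11.1 RPM in the 408 replicates. On chromosome 6 a gene of the mirrored rule, with 38.0 and 37.8 RPM in 409 against 76.8 and 88.6 RPM in 408, lay between Csa6G403620 and Csa6G404190. Without the replicate limits no such excess was seen within 10 listed genes. A gene at least 2-fold higher in 408 lay that near to 19 members (54.3%) and to 57.3% of all genes tested. Within 5 listed genes the shares were 37.1% and 35%. Directly adjacent to such a gene were 4 members (11.4%), against 8.34% of all genes tested, which rests on few members. Each of the counts under the mirrored rule rests on few genes, and genes are not independent of their neighbours.

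The mirrored rule gave 66 genes, so that fewer genes were both 2-fold apart and close between replicates in the direction of 409 than of 408. As a share of the genes that met the level and ratio limits, the counts were 35 of 378 (9.26%) for 409 over 408 and 66 of 860 (7.67%) for 408 over 409. The balance depended on the scaling of the libraries, with 51 genes higher in 409 and 54 higher in 408 after median-of-ratios scaling, and 68 and 45 after quantile normalization. The median ratio of the means, 409 over 408, was 2.62 in the members and 0.393 in the mirrored set. In 408, replicate 2 was below replicate 1 in 29 of the 35 members and in 10 of the 66 genes of the mirrored set. The 408 replicate 2 pool thus lay farther from line 409 than replicate 1 did in most genes of both sets.

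Among all 17391 genes tested, 6076 (34.9%) had both 409 values above both 408 values, and 565 (3.25%) had a lower 409 value at least 2 times the higher 408 value. All 35 members are among these by the way they were chosen. In limma on log2(RPM + 1), 1757 genes (10.1%) were higher in 409 at a Benjamini-Hochberg adjusted p under 0.05, and the 35 members were all among them. Nothing is read from this, because the rule used the same values. Without the filter on low values limma called 0 genes and 0 members, with 3398 genes higher in 409 at an unadjusted p under 0.05. With the replicate number as a block it called 450 genes (2.59%) higher in 409 and 23 of the 35 members. When 1 library was left out, 1 line had a single library, so only the size of the difference is given. The median ratio of the means over the members was then 2.48 to 2.75. Nothing is read from these values either, for the same reason. No other tool was run on these values.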

How the data were processed

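The deposited table holds RPM values to 1 decimal for 4 libraries, scaled by the authors to 1000000 reads of listed genes, and all 4 columns were used. TopHat is named as the aligner in the submitters' processing notes. The genome build, read counter and use of strand in counting are not given in the sources consulted. The kit keeps the strand, per the labels' protocols.

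Depth was estimated as the number of reads whose whole multiples best explain how often each low RPM value occurs, with a largest error of 0.00843% on 4 simulated libraries. A single read is worth less than the rounding step of 0.1 RPM, so reads were only approximated, for counting SDs and intervals, and count models were not used.

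All 17391 genes reaching 1 RPM in 2 or more libraries were fitted with limma 3.58.1 (R 4.3.3) on log2(RPM + 1), with a mean-variance trend and Benjamini-Hochberg adjustment. In simulated data for 409 against 408 (17261 genes), 26 of 100 changes of 2-fold and 98 of 100 of 8-fold were recovered, with 10 false calls. The simulation changed only these genes, far fewer than the 1757 called higher in 409, so its rates need not hold for the data. With 2 libraries per line, an exact permutation p for 1 gene is at least 0.333. The labels call the samples biological replicates. The limma p-values set the line difference against the spread between 2 pools of fruits per line, steadied by the spread of other genes. All fruits were picked on 1 day, so the spread between harvests is not covered.

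Members and lists were chosen with earlier results of these data known. The genes named by rule are the 2 with the largest ratio of the lower 409 to the higher 408 value. Lists by product name could not be applied to unnamed IDs. Alternatives were other limits of the rule, pseudocounts, filters, scalings, a replicate block and leaving out each library. Other steps used Python 3.11.15 (numpy 2.4.6, pandas 2.3.3, scipy 1.17.1, matplotlib 3.10.9).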

Additional observations from a re-analysis of the deposited data

How the results depend on the processing

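The number of members followed the limits of the rule. It was 249 with a least ratio of 1.5 and 5 with 3, 6 with a replicate limit of 1.1, 117 with 1.5 and 378 with none, and 68 after quantile normalization. It was 26 to 51 with a least level of 5 or 20 RPM, no limit on the mean, or median-of-ratios scaling. Leaving out 1 library gave 96 to 923 genes, as the line left with 1 library then has no replicate limit. The highest count came without 408 replicate 1, when the ratio was taken against 408 replicate 2 alone. Replicate 2 was the lower 408 value in 320 of the 324 genes whose 408 replicates lay too far apart. The reason for that order was not tested. All 35 members met the rule with each library left out, which was certain in advance, because leaving out a library only loosens the limits. The median ratio of the means ran from 2.43 to 2.75 under the other settings. The 1757 genes that limma called higher in 409 became 0 without a filter on low values (3398 higher at an unadjusted p under 0.05). They became 2703 after quantile normalization (2702 lower) and 3198 at a threshold of 0.10. The 35 members called became 0 without the filter. In the main fit all 35 had the same limma adjusted p of 0.0317, the smallest of all genes tested. Without the filter their limma adjusted p was 0.0674, again the smallest, and all 35 kept an unadjusted p under 0.05. The count of members thus turned on 1 shared adjusted p that lay near the threshold. Why it moved was not tested. No counts are given for fits that leave 1 library in a line. With the replicate block, limma called 450 genes (2.59%) higher in 409, 23 of them members. The labels do not say that a replicate number marks a shared batch, and same-numbered libraries deviated from their line means with a correlation of -0.48 across genes. With the numbers crossed, a fit chosen after seeing the data, the counts were 3570 genes (20.5%) and 35 members. Members with another within the window numbered 2 (5.71%) with 5 listed genes on each side, against 1.71% of all genes tested. With 20 listed genes they numbered 4 (11.4%), against 6.68%. At a replicate limit of 1.5, 18 of the 117 genes (15.4%) had another within 10 listed genes, against 11% of all genes tested. The tests on recovered reads were not run.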
